A study of Mus musculus with 8 samples.

Results

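Satellite glia are the cells that wrap each sensory neuron body of a dorsal root ganglion (DRG), and 10 genes known to mark them were examined in RNA of sorted mouse sensory neurons. The genes were Apoe, Fabp7, Kcnj10, Glul, Slc1a3, S100b, Gja1, Sox2, Erbb3 and Cdh19. They were chosen by name as known markers of this cell type, by a rule that uses no measured value but with earlier results of these data known, and they are 10 of the 22609 gene symbols in the count tables. The samples were 4 libraries from female and 4 from male C57BL/6J mice, aged 8 to 12 weeks. All mice were naïve, without treatment other than the label, and females were taken in the estrous phase. In both sexes the fluorescent lectin WGA-488 was injected into hindpaw and thigh muscle 2 days before the lumbar ganglia were dissociated, and labelled neurons were collected by fluorescence-activated sorting. Each library came from 6 ganglia and was made with the SMART-seq2 protocol, so neurons of skin and of muscle were mixed in every library and the sort was for the label, not for a neuronal marker.

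Satellite glia form a closed sheath around each neuron and control what reaches it. They take up potassium and glutamate from the narrow gap at the neuron surface, turn glutamate into glutamine, pass ions and small molecules to each other through gap junctions, and supply lipids. They are related to Schwann cells, the glia of axons, with which they share the neuregulin receptor ErbB3 and several transcription factors, and they are often still attached when ganglia are dissociated into single cells.

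The libraries held 4.80 to 7.33 M reads in genes (M, 1e6), and 3 reads correspond to 0.409 to 0.625 counts per 1e6 gene reads (CPM), the floor of detection used here. All 14 measured pan-neuronal markers had reads in every library, with summed levels of 24822 to 35107 CPM in females and 24809 to 28037 CPM in males. Male replicate 1 and female replicate 4 stood apart from the other libraries in the satellite glia genes or in genes generally, and the fold changes of the members are given with and without them.

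All 10 satellite glia genes were detected in all 8 libraries, above the floor of that library. Together they took 0.379% to 1.25% of the reads in genes. Levels of different genes were compared as CPM per kilobase of exon, as mean ± SD over the 8 libraries. Apoe, the lipid carrier that glia secrete, stood first with 3727 ± 1156. On the same scale the neuronal tubulin gene Tubb3 had a mean of 2636 and the neurofilament gene Nefl a mean of 1895. The brain-type fatty acid-binding protein gene Fabp7 followed with 484 ± 102, and S100b, which encodes a calcium-binding protein of glia, with 320 ± 80.2. A group of middle level held Glul, the glutamine synthetase gene, with 21.7 ± 3.76, the glial cadherin gene Cdh19 with 18.2 ± 5.96, the gap junction gene Gja1 (connexin 43) with 17.1 ± 4.75 and the potassium channel gene Kcnj10 (Kir4.1) with 8.71 ± 2.42. The lowest were Erbb3 with 3.92 ± 1.71, the glutamate transporter gene Slc1a3 (GLAST) with 1.81 ± 0.623 and the transcription factor gene Sox2 with 0.850 ± 0.273. Ranges over the libraries were separate only between Apoe and Fabp7 and between S100b and Glul. All other neighbours in this order overlapped, and some changed places between libraries: Glul was above Cdh19 in 6 of 8, Cdh19 above Gja1 in 5 of 8 and Erbb3 above Slc1a3 in 7 of 8.

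All 10 genes are annotated as protein-coding, and 4 of them lie on chromosome 10 of the build mm9: Gja1 (chr10:56097106-56110225, plus strand), Fabp7 (chr10:57504687-57508256, plus), S100b (chr10:75716598-75723904, plus) and Erbb3 (chr10:128004579-128026708, minus). Chromosome 1 carries 3 of them, Cdh19 (chr1:112785772-112873949, minus), Glul (chr1:155747074-155756853, plus) and Kcnj10 (chr1:174271341-174304216, plus). The others are Sox2 (chr3:34548927-34551383, plus), Apoe (chr7:20281458-20284515, minus) and Slc1a3 (chr15:8584124-8660764, minus). Reads were counted in exons, and the exons of Glul share 67 bases with those of 5830403L16Rik on the opposite strand. Sox2 lies inside the longer gene Sox2ot and S100b inside Dip2a, in each case with 0 exon bases shared. The strand option of the counting was not stated, so reads of overlapping exons cannot be assigned by strand.

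Promoters are shown for the most abundant member, for S100b and for the transcription factor gene Sox2. RefSeq windows (build GRCm38.p6) were found for 8 of the 10 genes, not for Erbb3 and Cdh19. The 250 bases before the start site are given 5′ to 3′ on the strand of the gene, with mm9 positions from an exact match to that build, chr7:20284538-20284787 (minus) for Apoe, chr10:75716331-75716580 (plus) for S100b and chr3:34548667-34548916 (plus) for Sox2. Capitals mark the SOX core ACAAAG or the RBPJ core TGGGAA, either of which may read as its reverse complement.
Apoe promoter: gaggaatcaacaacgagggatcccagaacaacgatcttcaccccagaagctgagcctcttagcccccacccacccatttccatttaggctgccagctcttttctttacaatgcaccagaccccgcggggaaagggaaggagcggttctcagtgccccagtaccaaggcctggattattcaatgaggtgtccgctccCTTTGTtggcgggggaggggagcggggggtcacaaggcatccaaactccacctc
S100b promoter: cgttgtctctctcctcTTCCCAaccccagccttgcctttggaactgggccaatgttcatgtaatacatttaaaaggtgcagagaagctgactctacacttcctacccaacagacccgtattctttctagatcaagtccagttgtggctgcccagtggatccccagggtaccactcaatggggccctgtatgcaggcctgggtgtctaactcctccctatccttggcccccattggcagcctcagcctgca
Sox2 promoter: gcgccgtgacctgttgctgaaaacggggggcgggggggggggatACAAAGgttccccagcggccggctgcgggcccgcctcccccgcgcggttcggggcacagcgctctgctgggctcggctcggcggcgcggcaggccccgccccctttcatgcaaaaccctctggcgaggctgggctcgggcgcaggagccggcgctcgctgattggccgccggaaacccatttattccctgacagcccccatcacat
The 8 genes had 10 windows. ACAAAG was found on either strand in 2 of the 10, at -206 from the start of Sox2 and at -54 from that of Apoe, and in 16.5% of all 32851 mouse promoter windows. TGGGAA was found in 2 of the 10, at -234 of S100b and -249 of Fabp7, and in 21.6% of all windows. A second SOX core, AACAAT, was found in 0 of the 10 and in 9.42% of all windows. The matches did not overlap, and they are matches of letters, not measured binding. All promoters shown hold a match, which not all windows do. Apoe had further windows at chr7:20283971-20284220 and chr7:20283748-20283997 (minus), and neither held any of these motifs.

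The comparison of sexes asked whether satellite glia transcripts differed between female and male preparations. None of the 10 genes differed after adjustment over all genes, and Apoe alone had an unadjusted p-value under 0.05. Apoe was measured at 8326, 8054, 8507 and 10873 CPM in female replicates 1 to 4 and at 3068, 6598, 7796 and 5810 CPM in male replicates 1 to 4. Every female library lay above every male library, by as little as 8054 against 7796 CPM. The female mean was 8940 ± 1302 CPM and the male mean 5818 ± 2007 CPM (SD, 4 libraries each), and the log2 fold change, female over male, was 0.61 ± 0.23 (SE), with an unadjusted p of 0.0258 and an adjusted p of 0.647 by edgeR's quasi-likelihood test with Benjamini-Hochberg adjustment. Of all 12518 genes tested, 0.0879% passed an adjusted p of 0.05. An unadjusted p under 0.05 with a higher level in females was reached by 1 of the 10 members and 4.62% of all genes. Separate ranges with females higher were seen for the same 1 member and for 3% of all genes. Apoe also met a rule of an unadjusted p under 0.05, a fold change over 1.5 and a mean over 1 CPM, as did 2.72% of all genes. The rule was adapted from the relaxed one that the paper used to find biological processes in these neurons. The paper's level cut was scaled by gene length, and CPM is not. Its main rule asks for a larger fold change, which Apoe did not reach, with a ratio of group means of 1.54. The call at an unadjusted p of 0.05 was lost without female replicate 4 (log2 fold change 0.50, unadjusted p = 0.0587 by edgeR) and without male replicate 4 (0.60, unadjusted p = 0.0522 by edgeR).

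**Figure D1:**
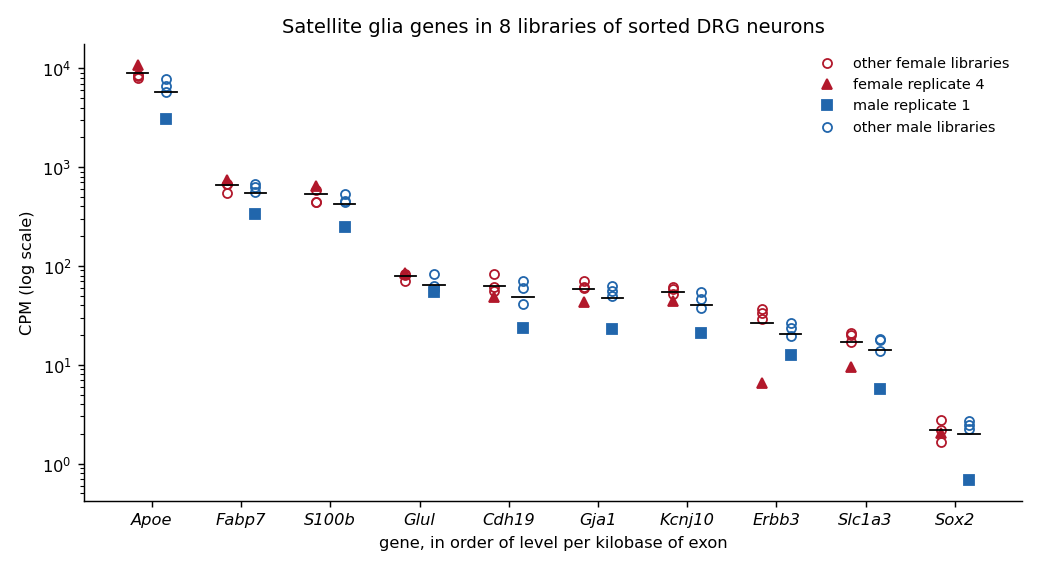
Level of each satellite glia gene in each library, in CPM on a log axis, with 1 point per library (females red, males blue; filled triangles, female replicate 4; filled squares, male replicate 1) and bars at the group means. Apoe is the only gene whose female points (8054 to 10873 CPM) all lie above the male points (3068 to 7796 CPM), and male replicate 1 is the lowest male point for all 10 genes.

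The genes of potassium and glutamate handling overlapped between the sexes. Kcnj10, whose channel takes up the potassium released by firing neurons, was at 58.7, 62, 51.7 and 44.6 CPM in female replicates 1 to 4 and at 21.1, 46.6, 54.5 and 37.6 CPM in male replicates 1 to 4. Its log2 fold change was 0.43 ± 0.25 (SE), the largest after Apoe, with an adjusted p of 0.744 by edgeR. Glul was the steadiest member, at 70.7, 80.9, 83.1 and 84.2 CPM in females and 54.2, 62.8, 83.7 and 57.7 CPM in males. The male value of 83.7 CPM lay within the female range, and the log2 fold change was 0.29 ± 0.15 (SE; adjusted p = 0.720 by edgeR). Slc1a3 was at 16.9, 21.0, 19.8 and 9.60 CPM in females and 5.73, 18.4, 18.0 and 13.9 CPM in males. Female replicate 4 and male replicate 1 were the lowest of their sexes, and its log2 fold change was 0.26 ± 0.35 (SE; adjusted p = 0.872 by edgeR).

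Fabp7 and S100b, the abundant binding proteins, also overlapped. Fabp7 was at 674, 679, 552 and 739 CPM in females and at 333, 629, 676 and 556 CPM in males, and S100b at 448, 441, 584 and 647 CPM in females and at 250, 452, 535 and 442 CPM in males. In both genes 3 of the 4 male libraries reached the female range. The log2 fold changes were 0.26 ± 0.19 and 0.32 ± 0.22 (SE), with adjusted p-values of 0.803 and 0.779 by edgeR. Without male replicate 1 they were 0.08 and 0.14, and without both outlying libraries 0.02 and 0.03.

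Gja1 and Cdh19, genes of cell contact, overlapped between the sexes as well. Gja1 was at 70.7, 61.1, 60.2 and 43.5 CPM in females and at 22.9, 55.4, 62.1 and 50.0 CPM in males (log2 fold change 0.30 ± 0.27, SE; adjusted p = 0.812 by edgeR). Cdh19 was at 61.2, 83.3, 55.2 and 48.7 CPM in females and at 23.7, 59.4, 71.2 and 41.4 CPM in males (log2 fold change 0.33 ± 0.30, SE; adjusted p = 0.810 by edgeR). For both genes male replicate 1 was below every other library. The remaining males lay within the female range for Gja1, and for Cdh19 male replicate 4 was also below it. Without male replicate 1 the log2 fold changes were 0.07 for Gja1 and 0.11 for Cdh19, and without both outlying libraries 0.19 and 0.21. Cdh19 was also at 0.15 without female replicate 2 and at 0.57 without male replicate 3.

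Sox2, a transcription factor that satellite glia keep from their progenitors, was close to the floor. It had 16, 16, 8 and 12 reads in female replicates 1 to 4 and 5, 18, 15 and 15 reads in male replicates 1 to 4, or 1.67 to 2.78 CPM and 0.682 to 2.67 CPM. Its log2 fold change of 0.11 ± 0.39 (SE; adjusted p = 0.952 by edgeR) was the smallest of the 10.

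Erbb3, the receptor through which neuregulins act on glia, differed from the rest in the library that was low. It was at 36.8, 33.3, 29.4 and 6.57 CPM in female replicates 1 to 4 and at 12.6, 23.8, 26.6 and 19.7 CPM in male replicates 1 to 4. Female replicate 4 was the lowest of all 8 libraries, with 39 reads, while the other 3 females were above every male. The log2 fold change was 0.36 ± 0.42 (SE; adjusted p = 0.850 by edgeR) over all libraries. With 1 library left out at a time it ranged from 0.15, without female replicate 1, to 0.68, without female replicate 4, and it was 0.22 without female replicate 2, 0.15 by limma-voom and 0.21 with the replicate block. The value of 0.68 came with an unadjusted p of 0.0096 and an adjusted p of 0.324 by edgeR. In that fit 5.7% of all genes reached an unadjusted p under 0.05 with females higher. The ranges of Erbb3 and Apoe were then separate, as were those of 6.03% of all genes, and Erbb3 met the 1.5-fold rule with 2.77% of all genes. No member passed adjustment, against 0.102% of all genes.

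**Figure D2:**
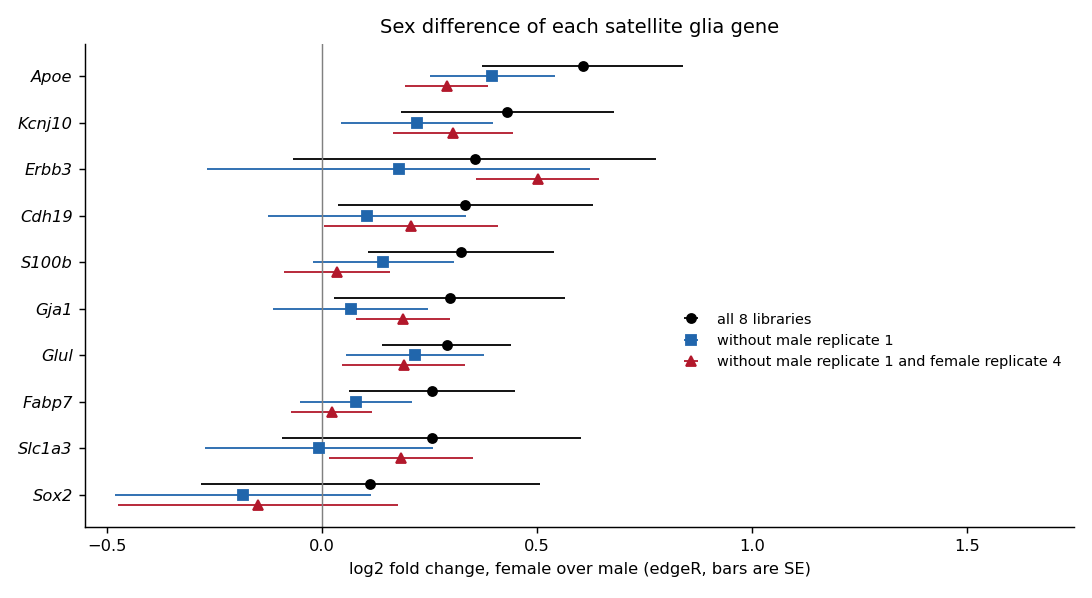
Log2 fold change, female over male, of each satellite glia gene from edgeR, with bars of 1 SE, for all 8 libraries (black), without male replicate 1 (blue) and without male replicate 1 and female replicate 4 (red). With all libraries the 10 values run from 0.11 (Sox2) to 0.61 (Apoe); without male replicate 1 they run from -0.18 to 0.40.

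The fitted fold change was above 0 for all 10 genes, as it was for 51.7% of all genes tested, and its median was 0.31 against 0.01 over all genes. The 10 values come from the same libraries and are not separate observations. Male replicate 1 was the lowest of the 8 libraries for 9 of the 10 genes, all but Erbb3, and the lowest male library for all 10, whereas it was the lowest of the 8 for 17.6% of all genes tested. Its level, as a ratio to the mean of the other 3 males, ranged from 0.278 for Sox2 to 0.796 for Glul, with a median of 0.456. In bulk samples, fewer satellite glia and less RNA per satellite glial cell cannot be told apart. The part of other cell types in these levels was not tested. Without male replicate 1 the median was 0.12, the fitted values of Slc1a3 and Sox2 were -0.00697 and -0.18, those of Kcnj10, Glul and Erbb3 were 0.22, 0.22 and 0.18, and 8 of 10 were above 0. Apoe was then at a log2 fold change of 0.40, with an unadjusted p of 0.0219 and an adjusted p of 0.972 by edgeR, and 3.16% of all genes reached an unadjusted p under 0.05 with females higher. The ranges of 1 member, Apoe, were separate in that comparison, as were those of 4.01% of all genes with females higher; 0 members met the 1.5-fold rule against 1.79% of all genes, and 0 passed adjustment against 0.0714%.

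The counts also moved with male replicates 3 and 4. Without male replicate 3, Apoe, Glul and Kcnj10 had an unadjusted p under 0.05, or 3 members against 4.21% of all genes. Apoe and Glul, 2 members, had separate ranges against 5.11% of all genes, Apoe and Kcnj10 met the 1.5-fold rule against 3.11%, and no member passed adjustment against 0.0784%. Without male replicate 4, 0 members had an unadjusted p under 0.05 against 3.42% of all genes, 1 had separate ranges against 4.19%, 0 met the 1.5-fold rule against 2.57% and 0 passed adjustment against 0.0556%.

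The spread of the members differed between groups of libraries. The SD of log2(CPM + 1), averaged over the 10 genes, was 0.337 among the 4 females, 0.539 among the 4 males, 0.168 among the females without replicate 4 and 0.211 among the males without replicate 1. Over all 8 libraries the SD was smallest for Glul, at 0.257, and largest for Erbb3, at 0.778.

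In female replicate 4, the difference from the other females varied with exon length. Against the mean of the other 3 females, its log2 ratio was 0.39 for Apoe, 0.40 for S100b and 0.22 for Fabp7, the members with under 2 kb of exon, and the median of all tested genes of that length was 0.36. For the longer members it was 0.11 for Glul, -0.13 for Sox2, -0.45 for Cdh19 and -0.56 for Gja1, with a median of 0.10 over all genes of 2 to 5 kb. The members of 5 kb or more were at -0.36 for Kcnj10, -1.0 for Slc1a3 and -2.34 for Erbb3, with a median of -0.61 over all such genes. Of the 3127 genes of that length with a mean of at least 10 CPM, 31 (0.991%) were as low as Erbb3 in this library. In male replicate 1 the corresponding ratios to the other males were below 0 for all 10 members, from -0.33 for Glul to -1.85 for Sox2, and the medians of all genes were between -0.02 and -0.01 in the 3 length classes. With both libraries left out, a step chosen after seeing the data, 9 of the 10 members were above 0 with a median of 0.19, Apoe was at 0.29 (unadjusted p = 0.0133 by edgeR) and Erbb3 at 0.50 (unadjusted p = 0.0059 by edgeR), Kcnj10, Glul, Slc1a3 and Sox2 were at 0.31, 0.19, 0.18 and -0.15, and the lowest adjusted p was 0.35. In that fit 5.18% of all genes reached an unadjusted p under 0.05 with females higher, and 0.103% passed adjustment. The ranges were separate for 2 members and 7.85% of all genes, and 0 members met the 1.5-fold rule against 2% of all genes.

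**Figure D3:**
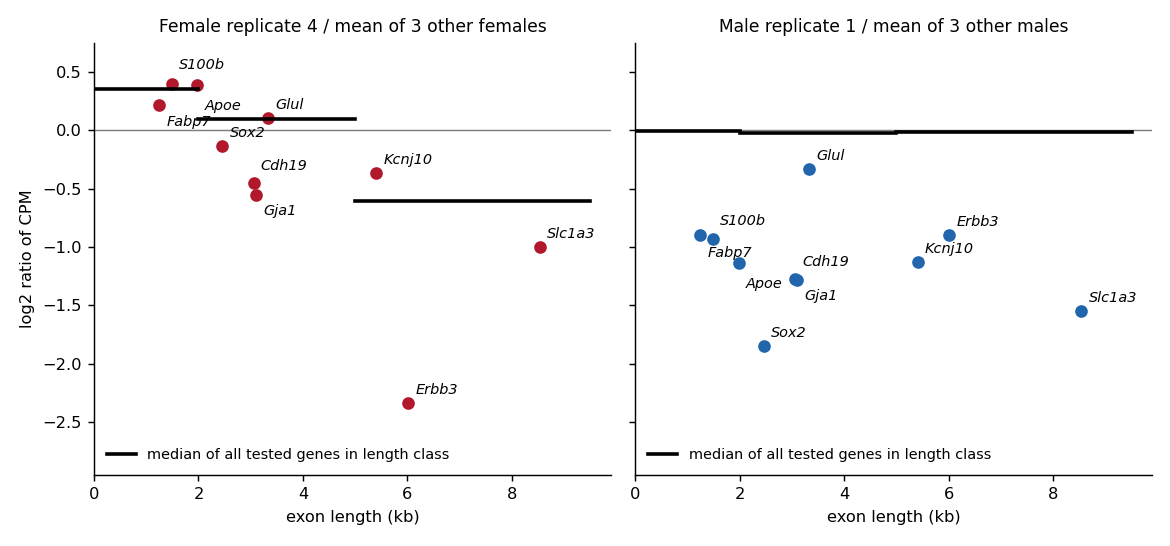
Log2 ratio of CPM in female replicate 4 to the mean of the other 3 females (left) and in male replicate 1 to the mean of the other 3 males (right), against exon length in kb, 1 point per satellite glia gene, with black lines at the median of all tested genes in 3 length classes. On the left the medians fall from 0.36 to -0.61 with length and Erbb3 is lowest, at -2.34; on the right all 10 genes lie below lines near 0.

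The summed level of the 10 genes was 9518 to 12499 CPM in females and 3792 to 9325 CPM in males, so the sums did not overlap, and their means differed 1.49-fold, or 1.29-fold without male replicate 1 and 1.20-fold without both outlying libraries. Apoe made up 80.9% to 87.0% of each sum. Without Apoe the remaining 9 genes had a mean sum of 1492 ± 90.0 CPM in females against 1206 ± 345 CPM in males (SD, 4 libraries each), which overlapped and differed 1.24-fold, or 1.09-fold without male replicate 1. The ratio of Apoe to the sum of the other 9 was 5.78, 5.50, 5.92 and 6.69 in female replicates 1 to 4 and 4.24, 4.89, 5.10 and 4.76 in male replicates 1 to 4, without overlap. That sum is mostly Fabp7 and S100b, and the ratio of Apoe to a single member overlapped between the sexes for all members but Fabp7. This ratio was chosen after the values had been seen, for the member with the largest fold change, and carries no test.

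The wider pathways of the members were read from lists of related genes, in none of which a gene passed an adjusted p of 0.05 in the quasi-likelihood fit of all 8 libraries. In other fits Sox10 and the fibroblast marker Dcn passed, with values given below. Among 11 tested partners of glutamate uptake, 5 were fitted above 0 and the median log2 fold change was -0.07. The glutamine and neutral amino acid transporter gene Slc1a5 was at 32.3 to 42.6 CPM in females and 20.2 to 33.0 CPM in males, with a log2 fold change of 0.51 (unadjusted p = 0.0108). Of 9 partners of potassium and water balance, 7 were above 0 and none had an unadjusted p under 0.05, and the median was 0.34, or 0.20 without male replicate 1 and 0.35 without both outlying libraries. Only 3 of 11 connexin and pannexin genes were expressed enough to be tested, none with an unadjusted p under 0.05, and Gjb6 had 0 reads. Among neuregulins and ErbB receptors, Erbb2, the partner with which ErbB3 signals, was at 10.6, 12, 12.9 and 7.08 CPM in females and 3.55, 8.02, 6.94 and 7.25 CPM in males (log2 fold change 0.71, unadjusted p = 0.0268; 0.51 and unadjusted p = 0.0601 without male replicate 1). As for Erbb3, female replicate 4 was the lowest female. The neuregulin gene Nrg3 was at 6.23 to 8.96 CPM in females and 10.2 to 12.1 CPM in males, without overlap (log2 fold change -0.53, unadjusted p = 0.0125).

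Of 11 apolipoprotein and lipoprotein receptor genes other than Apoe, 7 were fitted above 0. Vldlr, a receptor that binds apolipoprotein E, was at 25.1 to 33.1 CPM in females and 8.73 to 21.2 CPM in males, without overlap (log2 fold change 0.83, unadjusted p = 0.0055; 0.62 without male replicate 1). The other fatty acid-binding and S100 genes and the cadherins and catenins had 6 of 9 and 6 of 10 tested genes above 0, none with an unadjusted p under 0.05. Of the Sox genes, Sox10, the factor shared by satellite glia and Schwann cells, was at 31.2, 79.3, 105 and 77.2 CPM in females and at 11.2, 21.7, 31.5 and 28.7 CPM in males. The ranges touched, since the lowest female value was just below the highest male value. Its log2 fold change of 1.64 ± 0.38 (SE) had an unadjusted p of 0.0012 and an adjusted p of 0.410. The adjusted p was under 0.05 in 4 of 19 fits, at 0.00757 with DESeq2, 0.0125 with the edgeR exact test, 0.0194 with the replicate block and 0.0169 without female replicate 1, and without male replicate 1 the log2 fold change was 1.41 ± 0.35 (SE; unadjusted p = 0.0028, adjusted p = 0.972). Sox5 had a log2 fold change of 0.89 (unadjusted p = 0.0099), and Sox1 and Sox21 had 0 reads. The 8 Sox genes summed to 47.8 to 120.8 CPM in females and 16.6 to 42.8 CPM in males, without overlap, with the lowest sum in male replicate 1.

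Of 22 other genes of satellite glia and astrocytes 21 were tested, and all 21 were fitted above 0. An unadjusted p under 0.05 was reached by 6 of them, against 4.62% of all genes with females higher, and 5 had separate ranges, against 3%. Male replicate 1 was the lowest of the 8 libraries for all 21. Their summed level was 4958 to 5773 CPM in females and 3027 to 4808 CPM in males. The median log2 fold change was 0.41, and 0.23 both without male replicate 1 and without both outlying libraries. Bcan, which encodes the proteoglycan brevican, was at 240.0 to 303 CPM in females and 64.5 to 209 CPM in males (log2 fold change 0.82, unadjusted p = 0.0145; 0.57 without male replicate 1). The orphan receptor gene Gpr37l1 and the lipid phosphatase gene Ppap2b were at 0.67 (unadjusted p = 0.0230) and 0.60 (unadjusted p = 0.0077). Gfap, the astrocyte filament gene, was below the level for testing.

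Markers of other cell types were measured beside these genes, and their part in the results was not tested. Schwann cell markers summed to 3763 to 3973 CPM in females and 3545 to 4345 CPM in males; the sums overlapped, with the highest in a male library. Of 13 tested 10 were above 0, against 51.7% of all genes, and 4 had an unadjusted p under 0.05 with females higher, against 4.62%. Separate ranges with females higher were seen for 4 of the 13, against 3% of all genes. The median log2 fold change was 0.28, and 0.24 both without male replicate 1 and without both outlying libraries. The myelin genes Mbp and Mal were at 0.46 (unadjusted p = 0.0087) and 0.45 (unadjusted p = 0.0131). Male replicate 1 was the lowest library for 6 of these 13. Fibroblast markers summed to 78.7 to 125.7 CPM in females and 40.4 to 70.5 CPM in males, without overlap, with 5 of 5 tested above 0. An unadjusted p under 0.05 was reached by 3 of the 5, against 4.62% of all genes with females higher, and 2 had separate ranges, against 3%. Male replicate 1 was the lowest library for all 5, and their median log2 fold change was 0.62, or 0.46 without it and 0.37 without both outlying libraries. Dcn, a collagen-binding proteoglycan gene, was at 0.62 (unadjusted p = 0.0007; adjusted p = 0.326, but 0.0121 in the DESeq2 fit and 0.0300 by the exact test of edgeR). Macrophage markers summed to 6.60 to 12.1 CPM in females and 2.05 to 7.10 CPM in males, with the lowest sum in male replicate 1, and 2 of 10 were tested. Endothelial and mural markers summed to 54.7 to 89.5 CPM in females and 74.8 to 100.1 CPM in males, with the highest sum in male replicate 1, and none of the 3 tested was above 0. The 4 haemoglobin genes had 0 reads in every library. Pan-neuronal markers had 7 of 14 above 0 and a median log2 fold change of 0.00.

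**Figure D4:**
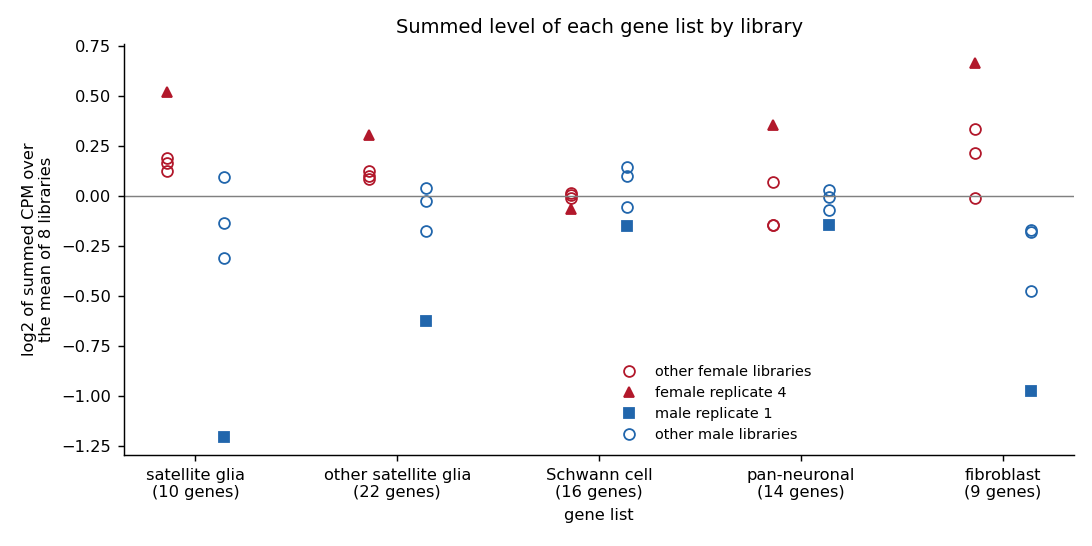
Log2 of the summed CPM of each gene list in each library over the mean of the 8 libraries, with 1 point per library (females red, males blue; filled triangles, female replicate 4; filled squares, male replicate 1). The sums of the satellite glia members (9518 to 12499 CPM in females, 3792 to 9325 CPM in males), of the other satellite glia genes and of the fibroblast markers, among the 5 lists drawn, do not overlap between the sexes, and those of the Schwann cell and pan-neuronal markers do.

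The genes whose profile over the 8 libraries was most like the mean profile of the members were found by the root mean square difference of centred log2(CPM + 1). They were Lpar1, a lysophosphatidic acid receptor gene, at 0.0748, the matrix protein gene Matn2 at 0.0801, Emp2 at 0.0806, the nuclear non-coding RNA gene Neat1 at 0.0838 and the cyclin D1 gene Ccnd1 at 0.0937. The median over the 12508 other genes was 0.448. Among the members themselves the difference ran from 0.0889 for Kcnj10 to 0.577 for Erbb3. Lpar1 was at 138 to 187 CPM in females and at 85.3 to 183 CPM in males, with its lowest value in male replicate 1.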

How the data were processed

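Raw read counts per gene were deposited for each of the 8 libraries. Per the labels and the study's methods, the authors aligned reads to mm9 with TopHat2 and counted them with HTSeq; versions, annotation and strand option are not given in the sources used here. The 5 summary lines of the counting (76.8% of the total over all lines, reads outside genes included) were left out. Depth was the sum over genes. Reads carry no molecular identifiers, so floors cover counting error only.

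Sexes were compared in R 4.3.3 by edgeR 4.0.16 (quasi-likelihood test, TMM scaling, default expression filter, sex as the only term). Benjamini-Hochberg adjustment covered the 12518 genes kept by the filter. The code was tested on simulated data. The biological coefficient of variation was 0.205. All p-values in the report are from this fit unless another is named. They measure the spread between libraries. No libraries of a sex agreed within sampling noise (chi-square per degree of freedom at least 2.90). Same-numbered libraries shared only a number. Positions and exon lengths came from GENCODE M1 on NCBIM37 (mm9), which held 95.7% of symbols. No batch or date is given in the labels.

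The members and lists were chosen with earlier results of these data known. All members are named, with at most 3 genes of each other list, by smallest unadjusted p, plus Sox10, the 5 genes with the most similar profile, and a few listed genes named for a count of 0 or as a reference level. Other settings tried were the exact test of edgeR, limma-voom with limma 3.58.1, DESeq2 1.42.0, other scalings and filters, the replicate block, leaving out each library and, added after seeing the data, leaving out both outlying libraries and a length correction. Python 3.11.15, pandas 2.3.3 and matplotlib 3.10.9 were used. A gene that the naming rule selects is not reported here. Whole ganglia and other preparations of the study were not analysed here.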

Additional observations from a re-analysis of the deposited data

Results flagged for a closer look

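Within each sex, a value was picked out when its gap to the nearest of the other 3 libraries was large against the range of the group (Dixon's test). Of 52 groups examined 8 were picked out, and chance gives about 2.6 for independent groups. These groups share the same libraries and some rest on few reads, so whether 8 exceeds chance was not tested. On the log2(CPM + 1) scale Sox2 was at 0.75 in male replicate 1, from 5 reads, with 1.69 to 1.88 in the other males, and Erbb3 at 2.92 in female replicate 4, from 39 reads, with 4.92 to 5.24 in the other females. The log2 summed level of the 10 members was 13.61 in female replicate 4, with 13.2 to 13.3 in the other females. In male replicate 1 the log2 sum of the fatty acid-binding and S100 genes was 11.27, above 11.117 to 11.123 in the other males. The macrophage marker sum of that library, 1.61, was below 2.94 to 3.02 in the other males. Female replicate 4 had a log2 sum of 9.16 for the cadherins and catenins, below 10.08 to 10.16 in the other females. Its red blood cell marker sum of 2.23 was above 0.27 to 0.50 in the other females. Male replicate 4 had 0.53 for the red blood cell markers, above 0.18 to 0.22 in the other males. The 4 haemoglobin genes had 0 reads, so these red blood cell sums come from the only other gene on that list. In male replicate 4 that sum was 0.444 CPM, the floor of 3 reads in that library.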

How the results depend on the processing

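No member passed an adjusted p of 0.05 in any of the 19 fits, and the lowest adjusted p was 0.324. The count of members with an unadjusted p under 0.05 was 1, ranged from 0 to 3 when each library was left out (0 without male replicate 4, where Apoe had an unadjusted p of 0.0522 by edgeR, and 3 without male replicate 3) and was 2 without both outlying libraries. Without female replicate 4 Erbb3 was called and Apoe, at 0.50 on the log2 scale, was not (unadjusted p = 0.0587 by edgeR). The count without overlap was 1, with a range of 1 to 2 (2 without female replicate 4 or male replicate 3), and 2 without both libraries. The count past the 1.5-fold rule was 1, with a range of 0 to 2 (0 without male replicate 1 or 4, 2 without male replicate 3), and 0 both without the outlying libraries and with the length correction. Fitted values below 0 arose for Slc1a3 without male replicate 1 (-0.00697, range -0.00697 to 0.45 over the libraries left out) and for Sox2 without female replicate 2 (-0.03), male replicate 1 (-0.18) or both outlying libraries (-0.15); Sox2 ranged from -0.18 to 0.28 over the libraries left out. The causes of these changes were not tested. The median log2 fold change ran from 0.12 to 0.45 over the libraries left out. Over the same fits Apoe ran from 0.40 to 0.78, Kcnj10 from 0.22 to 0.61, Glul from 0.22 to 0.43, Fabp7 from 0.08 to 0.37, S100b from 0.14 to 0.46, Gja1 from 0.07 to 0.45, Cdh19 from 0.11 to 0.57 and Erbb3 from 0.15 to 0.68. The same-numbered libraries did not pair, with correlations of 0.0906, -0.107, 0.141 and 0.00194 and 2 of 8 libraries closest to their own number; with the replicate block the median was 0.33, 1 member had an unadjusted p under 0.05 and 0 an adjusted one. The other 261 values kept their direction and their side of the threshold. The depth limits Sox2 most, with 5 to 18 reads per library.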

Other observations

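Among the pan-neuronal markers, Thy1, a surface glycoprotein gene of neurons, was at 266 to 312 CPM in females and 120 to 244 CPM in males, without overlap, with a log2 fold change of 0.58 (unadjusted p = 0.0097 and adjusted p = 0.630 by edgeR). Its lowest value was in male replicate 1, without which the log2 fold change was 0.42. The rest of that list had no gene with an unadjusted p under 0.05.

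The antigen presentation gene Cd74, a macrophage marker, was at 3.44 to 6.67 CPM in females and 0.136 to 2.97 CPM in males, with a log2 fold change of 1.59 (unadjusted p = 0.0104 by edgeR), or 1.19 without male replicate 1. The only other macrophage marker tested, C1qb, was at -0.13 (unadjusted p = 0.779 by edgeR). The mural cell gene Rgs5 was at 30.3 to 55.7 CPM in females and 47.4 to 69.2 CPM in males, with a log2 fold change of -0.46 (unadjusted p = 0.0466 by edgeR), and male replicate 1 held its highest value; without it the log2 fold change was -0.36 (unadjusted p = 0.132 by edgeR).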
